A study of Homo sapiens with 6 samples.

Results

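The nuclear-encoded subunits of the mitochondrial respiratory chain and ATP synthase were followed in pancreatic cancer xenografts treated with an iron chelator. Members were found by gene name on the array: names beginning with NDUFA, NDUFB, NDUFC, NDUFS or NDUFV and a digit, the 4 SDH genes, and names beginning with UQCR, COX4 to COX8, or ATP5. This gave 87 of the 36337 gene names on the array, measured by 115 probes on 169 spots. Of these, 80 were subunits of complexes I to V (36, 4, 8, 17 and 15 genes). The pair NDUFA4 and NDUFA4L2 was kept apart because NDUFA4 is now placed in complex IV despite its name. The other 5 were caught by name only: COX4NB, ATP5S, ATP5SL, ATP5L2 and the pseudogene UQCRBP1.

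The study asked how deferasirox (DFX), an oral iron chelator, alters gene expression in tumors grown from BxPC-3, an established human pancreatic adenocarcinoma line, under the skin of adult female BALB/c (nu/nu) mice. Nude mice have no functional thymus but keep other immune cells, and the cells were injected with Matrigel, so stroma, vessels and blood came from the host. The 3 tumors of the DFX group came from mice gavaged with 200 mg/kg DFX on alternate days over 21 days, and the 3 Control tumors from mice given vehicle alone. Each tumor, from 1 mouse, was hybridized to 1 one-color Agilent array of human probes, and signal from mouse RNA on these probes cannot be told apart from human RNA.

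The respiratory chain passes electrons from NADH (complex I) and succinate (complex II) through ubiquinone, complex III and cytochrome c to oxygen at complex IV, and complex V makes ATP from the proton gradient. Iron is built into the chain: complexes I, II and III hold iron-sulfur clusters, and complexes II, III and IV hold hemes. Most subunits are encoded in the nucleus and joined by a small set encoded in mitochondrial DNA, and the 2 sets must be assembled together.

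Values below are log2 intensities after quantile normalization, with the brightest probe standing for each gene, and differences are DFX minus Control on the log2 scale. Because probes differ in how strongly they bind, levels were compared between tumors for 1 probe at a time and never between genes. A gene was tested where its probe was detected on all 6 arrays, and its difference was called at an unadjusted limma p under 0.05, the level the study used. On 5 arrays 53.9% to 56.5% of probes were well above background, and on the array of DFX 2 it was 50.3%. All arrays lay on 1 slide with the Control tumors in 1 row and the DFX tumors in the other, so slide row and treatment cannot be told apart. In bulk tumors, fewer cells of a type and less RNA per cell cannot be told apart either.

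No respiratory chain gene passed the test. Of the 87 members, 85 were tested, and 0 of 85 had an unadjusted limma p under 0.05, against 7.91% of all 23810 genes tested (3.63% higher and 4.28% lower). Among the 3043 genes with a mean log2 intensity of 12 or more, where 70 of the 78 tested subunits lay, 4.37% were called, and the share of the members lay below both; no test of that gap was made. The lowest Benjamini-Hochberg adjusted p of limma among the members was 0.634. No gene on the array passed an adjusted p of 0.05 in limma (0 of 23810; 1884 at the unadjusted level).

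The differences were small as well as uncalled. The median difference of the 78 tested subunits was -0.0038, with 39 above 0 and 39 below, beside a median of -0.012 and 47.6% above 0 over all tested genes. The median size of the difference, without its sign, was 0.060 in the subunits and 0.151 over all genes (0.091 at a log2 intensity of 12 or more). In 74 of 78 subunits the difference was under 0.25. The 95% limma interval lay within 2-fold in both directions for 76 of 78 subunits and within 1.5-fold for 70 of 78, which is 89.7% against 50.7% of all genes. The share within 1.5-fold was not taken for bright genes alone, and most subunits were bright. The exceptions at 2-fold were the dim probes of COX6A2 and COX7A1. With 1 tumor left out the median moved between -0.069 (without Control 2) and 0.054 (without DFX 3), so its sign was not settled. With slide column as a block it was -0.084 (all genes -0.022), and with array quality weights 0.071 (all genes -0.0036). Under median scaling, which moved the median of all genes to -0.095, the subunit median was -0.11. With that scaling 66 of 78 subunits were below 0, beside 15770 of all 23810 tested genes.

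**Figure D1:**
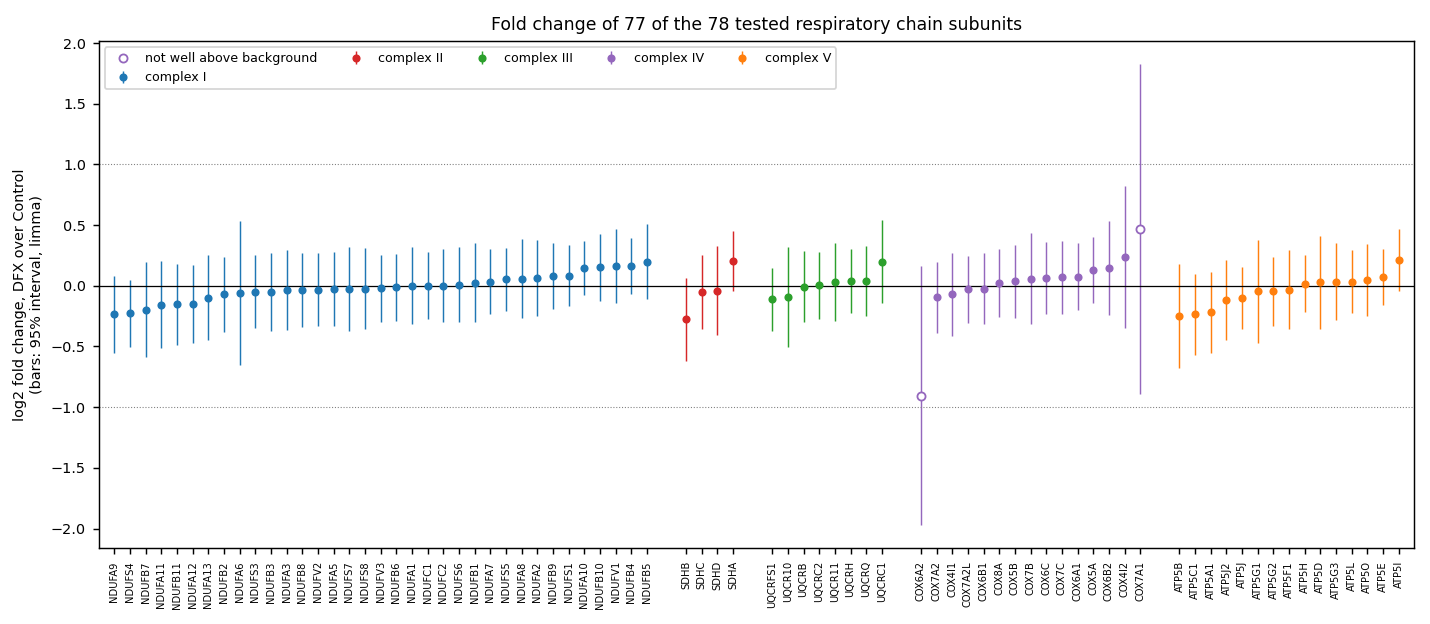
Log2 fold change (DFX over Control, y axis) of 77 of the 78 tested subunits, grouped by complex along the x axis, with points for the limma estimate and bars for its 95% interval, n = 3 tumors in each group. Dotted lines mark a 2-fold difference and all drawn intervals cross 0; COX6A2 and COX7A1 (open circles) were not well above background in 1 or both groups, so their points are no measured fold, and 1 subunit is not reported here.

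The 5 complexes did not separate by their medians. The median difference was -0.022 in complex I (36 tested), -0.044 in complex II (4), 0.016 in complex III (8), 0.059 in complex IV (15) and -0.033 in complex V (15). Each lay within the spread of its own median between replicate tumors, which was 0.097 to 0.123 (SD) over the complexes. In complex I, 16 subunits were above 0 and 20 below, and the 7 tested core subunits, the conserved catalytic part, had a median of -0.023. In complex IV, 10 were above 0 and 5 below.

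Groups that did not overlap, where every DFX tumor lay on the same side of every Control tumor, were found for 7 of 78 subunits (5 higher and 2 lower), against 15.4% of all genes tested (6.93% higher and 8.45% lower). The higher ones were NDUFA10 and NDUFB4, accessory subunits of complex I, SDHA of complex II, and ATP5E and ATP5I of complex V. The lower ones were NDUFA9 and NDUFS4, accessory subunits of complex I. These shares were below the background, and none of the 7 passed the test. NDUFB4 showed the pattern with little spread: 14.998, 14.94 and 14.97 with vehicle against 15.16, 15.14 and 15.09 with DFX. Its difference was 0.16 (SE 0.094, limma adjusted p = 0.669). NDUFS4, an accessory subunit needed for a stable complex I, was 13.20, 13.14 and 13.41 with vehicle against 12.99, 13.01 and 13.07 with DFX. Its difference was -0.23 (SE 0.11, limma adjusted p = 0.640). ATP5SL, caught by name only, did not overlap either and was lower by a difference of -0.20. Dimmer probes did not always bear out the higher subunits. The 2 dimmer probes of NDUFA10 gave -0.23 and -0.17, with overlapping groups. SDHA and ATP5E each had at least 1 dimmer probe below 0, while that of ATP5I was above 0 (0.099).

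Complex II, which oxidizes succinate and is built from 4 nuclear genes, showed its subunits on both sides of 0. SDHA, the flavoprotein that holds the catalytic site, was 14.34, 14.50 and 14.35 with vehicle against 14.59, 14.63 and 14.59 with DFX. All DFX tumors lay above all Control tumors. The difference was 0.21 (SE 0.10), or 15.4% higher with a 95% interval of -2.67% to 36.9%, and it did not pass (limma adjusted p = 0.635). SDHB, which carries the iron-sulfur clusters of the complex, was 12.68, 12.60 and 12.86 with vehicle against 12.41, 12.63 and 12.27 with DFX. DFX 1 and DFX 3 lay below all Control tumors and DFX 2 lay among them. The difference was -0.28 (SE 0.14, limma adjusted p = 0.643). Without DFX 2 it was -0.37 and passed the unadjusted level. The membrane anchors SDHC and SDHD, which hold the heme, differed by -0.050 (SE 0.13) and -0.039 (SE 0.15), with overlapping groups.

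The brightest and the dimmest of the SDHA probes are shown because they gave differences on opposite sides of 0, 0.21 and -0.17 (SE 0.21). The brightest lies at chr5:256725-256784 and the other at chr5:235411-236558, both on the plus strand of hg19. The second spans 1148 bases of genome with 60 bases of probe and so crosses at least 1 exon junction of spliced RNA. Junction probes are printed whole and the others by their first 30 bases, 5′ to 3′.
SDHA, brightest probe: ctttgtcccttgcttcatttttgtgacaag
SDHA, junction probe: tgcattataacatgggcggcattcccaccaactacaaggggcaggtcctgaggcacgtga

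Among the 7 subunits with iron-sulfur clusters, 2 were above 0 and 5 below, with a median difference of -0.023, and 0 of 7 were called. In complex I, NDUFV1, which also binds the flavin that accepts electrons from NADH, had the largest positive difference of the iron-sulfur subunits: 14.63, 14.57 and 14.76 with vehicle against 14.80, 14.98 and 14.67 with DFX, a difference of 0.16 (SE 0.12). DFX 3 lay among the Control tumors. NDUFS1, with the most clusters of any subunit of complex I, differed by 0.083 (SE 0.10). NDUFS7 (-0.023), NDUFS8 (-0.023) and NDUFV2 (-0.032) had smaller differences, each with an SE above its size and with DFX 2 as the highest and DFX 3 as the lowest DFX tumor. UQCRFS1, the Rieske protein of complex III, was 14.74, 14.60 and 14.73 with vehicle against 14.67, 14.59 and 14.48 with DFX, a difference of -0.11 (SE 0.11). The intervals for NDUFS1, NDUFS7, NDUFS8, NDUFV1, NDUFV2 and UQCRFS1 all lay within 1.5-fold of no difference, and that of SDHB reached from -0.62 to 0.067.

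**Figure D2:**
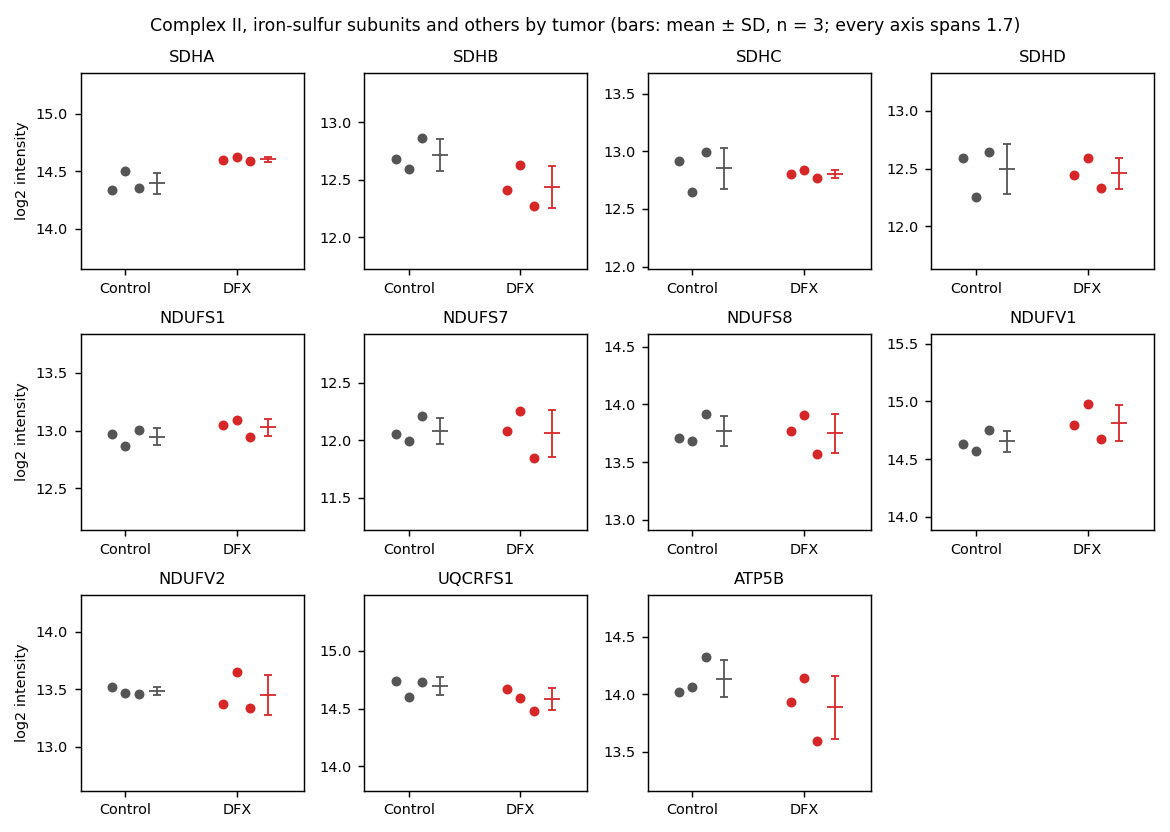
Log2 intensity (y axis, spanning 1.7 in each panel) of the 4 complex II subunits, the other iron-sulfur subunits and ATP5B in the 3 Control (grey) and 3 DFX (red) tumors, drawn in the order 1 to 3, with the mean ± SD at the side. Only SDHA had groups that did not overlap, and DFX 3 was the lowest DFX tumor in every panel.

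NDUFB5, an accessory subunit of the membrane arm, was 11.82, 11.61 and 11.92 with vehicle against 12.08, 11.99 and 11.87 with DFX, a difference of 0.20 (SE 0.13, limma adjusted p = 0.698). In complex III, UQCRC1, a core subunit, was 12.38, 12.50 and 12.52 with vehicle against 12.70, 12.86 and 12.43 with DFX. DFX 3 lay within the Control range. Its difference of 0.20 (SE 0.14) did not pass, and without DFX 3 it was 0.32 and passed the unadjusted level.

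Complex IV has tissue isoforms, and its paired subunits are given together. COX4I1, the common form of the regulatory subunit 4, differed by -0.071 (SE 0.14). COX4I2, the form known from lung and from cells in low oxygen, was 5.16, 4.93 and 5.18 with vehicle against 5.72, 4.83 and 5.42 with DFX. DFX 2 was the lowest of all 6 tumors and the other DFX tumors were the highest. The difference of 0.23 (SE 0.24) did not pass, and it was 0.48 and past the unadjusted level without DFX 2.

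COX6A1, the common form of subunit 6A, differed by 0.074 (SE 0.11). COX6A2, its heart and skeletal muscle form, was 4.17, 4.27 and 5.33 with vehicle against 4.20, 3.91 and 2.96 with DFX. The probe was well above background in all 3 Control tumors and in none of the DFX tumors, so only a bound was available: at least 1.2-fold lower in the DFX tumors, with a limma adjusted p of 0.634. The bound rested on Control 3: without it the Control mean lay below the background floor, no bound remained, and the fitted difference went from -0.90 to -0.53. Without DFX 3 it was -0.54. Control 3 was the highest and DFX 3 the lowest of the 6, and DFX 1 lay between Control 1 and Control 2. COX7A1, the other muscle form, was not well above background on any array and gets no fold, while COX7A2, its common partner, differed by -0.095 (SE 0.12). Of the 6 muscle markers tested, ACTA1 and MYLPF were likewise well above background on no array. CKM, MB, TNNC2 and TNNT3 were well above background on all 6 arrays. None of the muscle markers was called.

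COX6B1 (-0.023, SE 0.12), COX6B2, a form known from testis (0.15, SE 0.16), and COX8A (0.021, SE 0.11) had overlapping groups. The dimmer probe of COX6B2 gave -0.14 (SE 0.14). COX8C and COX7B2, forms also known from testis, were the 2 members with no tested probe: they were detected on at most 4 and 3 of the 6 arrays and were well above background on none. NDUFA4, a subunit of complex IV, differed by -0.0040 (SE 0.15). Its relative NDUFA4L2, a known target of hypoxia-inducible factor that lowers complex I activity, was 10.59, 10.06 and 9.73 with vehicle against 9.47, 10.20 and 9.97 with DFX. The groups overlapped, and the difference was -0.25 (SE 0.28, limma adjusted p = 0.819). Its junction probe (chr12:57629358-57629546, hg19, minus strand) is shown because the gene is known to be induced by low oxygen.
NDUFA4L2: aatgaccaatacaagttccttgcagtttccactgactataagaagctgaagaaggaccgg

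In complex V, the 3 large subunits of the F1 head had negative differences, none of them called. ATP5B, the catalytic beta subunit, was 14.02, 14.06 and 14.32 with vehicle against 13.93, 14.14 and 13.59 with DFX, a difference of -0.25 (SE 0.18). ATP5A1, the alpha subunit, differed by -0.22 (SE 0.14) and ATP5C1, the gamma subunit that turns within the head, by -0.23 (SE 0.14). For each of the 3 genes DFX 2 lay within the Control range and DFX 3 was the lowest of the 6 tumors. Without DFX 3 the differences shrank to -0.10 (ATP5B), -0.12 (ATP5A1) and -0.15 (ATP5C1), and without DFX 2 they were -0.37, -0.31 and -0.33, still uncalled. The small subunits ATP5D (0.028) and ATP5E (0.070) were near 0. The 5 F1 subunits had a median of -0.22, and the 10 subunits of the membrane part and stalks a median of -0.0075 with 5 on each side of 0. ATP5I, subunit e of the membrane part, was 16.15, 16.00 and 16.19 with vehicle against 16.30, 16.37 and 16.31 with DFX. Its groups did not overlap, and the difference was 0.21 (SE 0.10, limma adjusted p = 0.637).

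The clearest pattern was an order of the tumors within each group that many subunits shared. Because tumors were ranked within their own group, this order cannot show a difference by treatment. Control 2 was the lowest Control tumor for 63 of 78 subunits (80.8%, against 30.8% of all tested genes), and DFX 3 was the lowest DFX tumor for 71 of 78 (91%, against 38.7%). Control 3 was the highest Control tumor for 51 (65.4%, against 39.9%) and DFX 2 the highest DFX tumor for 49 (62.8%, against 34.6%). Bright genes as a whole did not show it: at a log2 intensity of 12 or more, Control 2 was lowest for 27.6% and DFX 3 for 41.9%. The subunits share arrays and depth of hybridization and are not independent of each other, so these shares are a description.

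The pattern ran through all 5 complexes. DFX 3 was the lowest DFX tumor for 34 of 36 subunits of complex I, 4 of 4 of complex II, 8 of 8 of complex III, 12 of 15 of complex IV and 13 of 15 of complex V. Control 2 was the lowest Control tumor for 31, 3, 7, 11 and 11 of them. As medians over the subunits, relative to each gene's Control mean, Control 1 stood at 0.029, Control 2 at -0.12, Control 3 at 0.088, DFX 1 at 0.030, DFX 2 at 0.065 and DFX 3 at -0.097. The span within each group was thus wider than the difference between the group medians. Control 2 and DFX 3 stayed the lowest of their groups when arrays were scaled to their 75th percentile (-0.15 and -0.15) or to their median (-0.19 and -0.29). Control 2 also had the fewest probes well above background among the Control arrays (54.2%). DFX 2, with the fewest among the DFX arrays (50.3%), had the highest DFX median. The part of signal depth in the pattern was not tested.

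**Figure D3:**
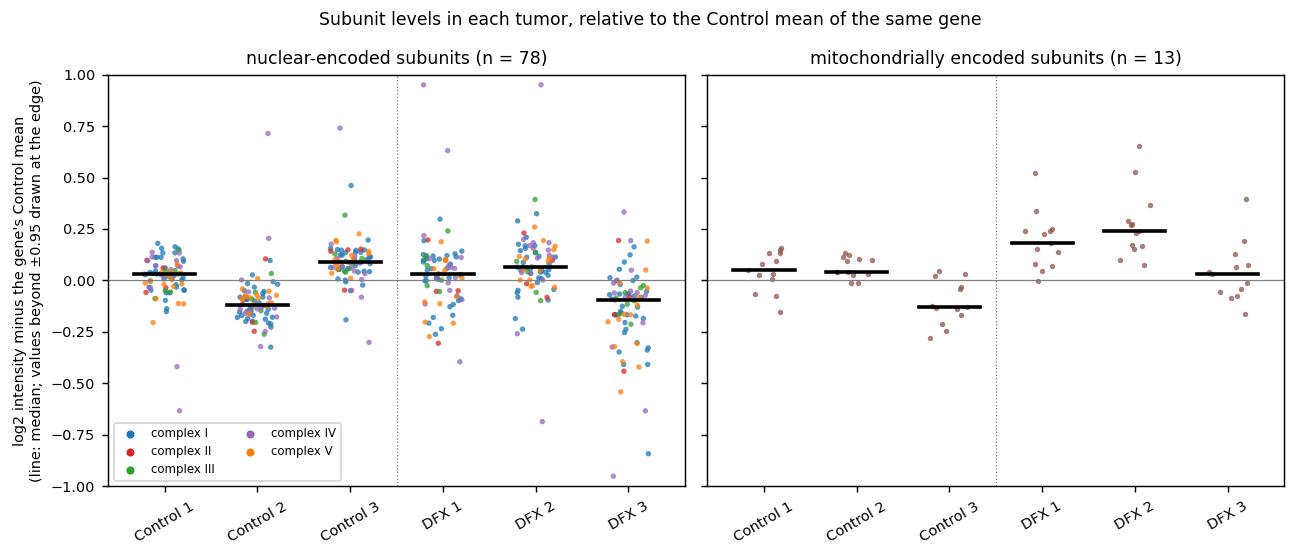
Log2 intensity of each subunit minus its Control mean (y axis) in the 6 tumors (x axis), for 78 nuclear-encoded subunits colored by complex (left) and the 13 mitochondrially encoded ones (right), with a black line at the median. The left medians are lowest in Control 2 (-0.12) and DFX 3 (-0.097); on the right, Control 3 (-0.13) is the lowest Control tumor.

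The 13 subunits encoded in mitochondrial DNA, which lie outside the naming rule, had a different order of the Control tumors. All 13 were tested, all had a difference above 0, and the median was 0.14, but 0 of 13 were called. ND1 had the largest difference: 12.19, 12.17 and 11.81 with vehicle against 12.58, 12.71 and 12.02 with DFX, or 0.38 (SE 0.22, limma adjusted p = 0.673). COX1, the catalytic subunit of complex IV, was 17.03, 17.15 and 17.14 with vehicle against 17.34, 17.21 and 17.50 with DFX, a difference of 0.24 (SE 0.12, limma adjusted p = 0.634). The file places the COX1 probe on chromosome 1 although it names the mitochondrial transcript, so a nuclear copy may share its signal. Groups did not overlap for 5 of 13 (ATP6, COX1, ND3, ND4 and ND4L, all higher), against 6.93% of all genes. These 13 RNAs come from shared long transcripts and share arrays, so they are not 13 independent measurements. Control 3, the highest Control tumor for most nuclear subunits, was the lowest for 10 of 13. Among the DFX tumors, DFX 3 was the lowest for 12 of 13 and DFX 2 the highest for 11, as for most nuclear subunits. Under median scaling 9 of 13 were above 0 with a median of 0.064. All tested genes then had a median of -0.095, with 8040 of 23810 above 0. With 1 tumor left out, 11 to 13 of the 13 were above 0.

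The promoters of the nuclear subunits were also searched for short motifs. Whether a motif had a part in the levels of the subunits across tumors was not tested. RefSeq (GRCh38.p14) gave the 250 bases before the start of 66 of the 80 subunits and of 27305 promoters in all; both strands were read. The ETS core CCGGAAG, the kind of site bound by NRF2 (GABP), was found in 16 of 66 subunit promoters (24.2%) and in 8.82% of all promoters. The NRF1 core CGCATGCG was found in 9 of 66 (13.6%) against 1.86%, in ATP5C1, ATP5G2, ATP5I, ATP5J, COX6A1, NDUFB4, NDUFS6, NDUFS7 and SDHD. This core was picked after smaller counts of a longer palindrome had been seen, so its share is only a description. The GC box GGGCGG was found in 54.5% against 42.3%, the TATA motif TATAAA in 10.6% against 11.1%, the YY1 core AAGATGGCG in 1.52% against 0.641% and the core of the hypoxia response element ACGTG in 22.7% against 18.7%. No motif of the list lies inside another, though neighboring matches can share letters, and a match is only a match of letters. Below are a promoter with both the NRF1 core and the ETS core (SDHD, chr11:112086623-112086872, plus strand), one with the NRF1 core from a subunit whose groups did not overlap (NDUFB4, chr3:120596086-120596335, plus strand), and that of the iron-sulfur subunit SDHB with an ETS core (chr1:17054033-17054282, minus strand), each read 5′ to 3′ with the NRF1 and ETS cores, on either strand, in capitals; other motifs are left in lower case.
SDHD: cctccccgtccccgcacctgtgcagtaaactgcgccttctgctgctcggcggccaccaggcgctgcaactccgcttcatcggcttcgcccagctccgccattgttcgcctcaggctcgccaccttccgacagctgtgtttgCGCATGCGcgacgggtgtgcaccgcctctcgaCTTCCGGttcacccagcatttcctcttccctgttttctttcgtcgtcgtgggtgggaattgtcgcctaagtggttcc
NDUFB4: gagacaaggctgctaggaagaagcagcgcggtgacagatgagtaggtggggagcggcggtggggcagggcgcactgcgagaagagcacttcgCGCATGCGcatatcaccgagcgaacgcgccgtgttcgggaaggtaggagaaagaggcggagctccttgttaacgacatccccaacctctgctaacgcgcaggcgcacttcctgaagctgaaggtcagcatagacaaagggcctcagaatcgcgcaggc
SDHB: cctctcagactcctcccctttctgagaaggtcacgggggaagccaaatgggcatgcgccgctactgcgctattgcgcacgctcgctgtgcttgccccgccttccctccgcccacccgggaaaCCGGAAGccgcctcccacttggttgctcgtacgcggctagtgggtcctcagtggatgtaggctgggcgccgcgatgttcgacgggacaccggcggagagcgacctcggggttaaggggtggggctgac

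Several subunits had more than 1 tested probe, and their probes did not always point the same way. Of 18 such subunits, 6 had probes on both sides of 0. Of the 24 dimmer probes, 20 (83.3%) had a lower difference than the brightest probe of the same gene, against 62.9% of 7997 dimmer probes over all genes, so that direction was common on these arrays. Among all 102 tested probes of the subunits, 1 was called, against 8.41% of all 31807 tested probes. It was the dim probe of ATP5E, the epsilon subunit of F1, with a difference of -0.44 (SE 0.13, limma adjusted p = 0.522), while the bright probe of ATP5E gave 0.070 (SE 0.095). The bright probe carries the RefSeq accession of the gene and the dim one only an Ensembl transcript, and they lie at chr20:57603812-57603871 and chr20:57601028-57601087 (hg19, minus strand). NDUFB5 gave 0.20 (SE 0.13) at chr3:179342191-179342250 and -0.22 (SE 0.12) at chr3:179332782-179332841, on the plus strand, from probes designed to different RefSeq transcripts. SDHA had 4 tested probes, from -0.17 to 0.21, and SDHC 3, from -0.41 to -0.050, none of them called. The differing probes of ATP5E and NDUFB5 are shown by their first 30 bases; which RNAs they bound was not tested.
ATP5E, bright: catttccaaggtgaagatgtgtgggcacat
ATP5E, dim: tccatggatcaaatagtgtatctcagtggt
NDUFB5, bright: gggcaactcaggattttaagttccataaag
NDUFB5, dim: catgggaaaagactatttgtcatcagacct

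**Figure D4:**
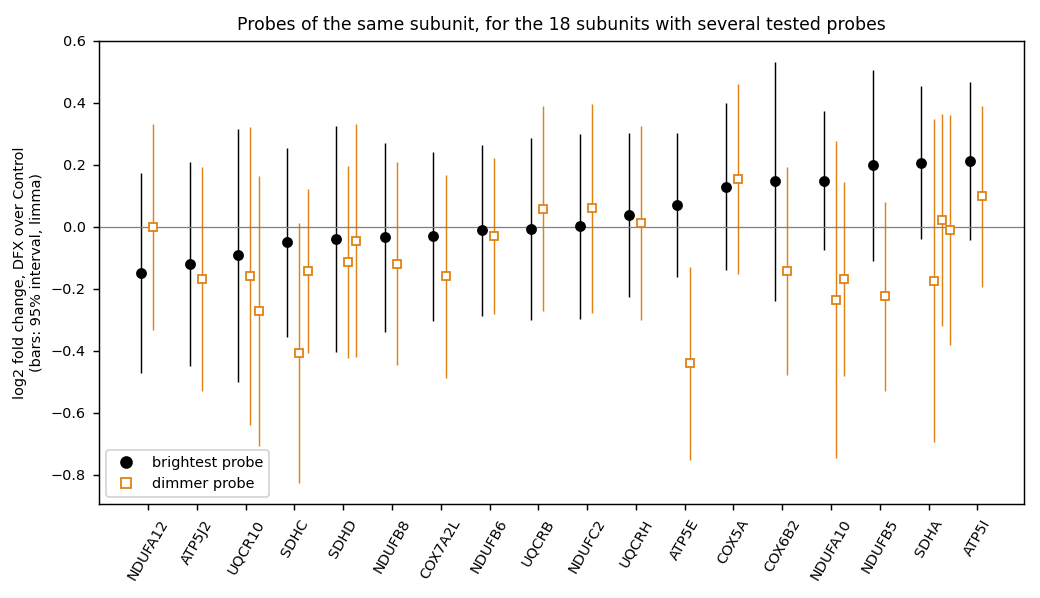
Log2 fold change (DFX over Control, y axis) from the brightest probe (black circles) and each dimmer probe (orange squares) of the 18 subunits with several tested probes (x axis), with 95% limma intervals, n = 3 tumors in each group. In 20 of 24 cases the dimmer probe lies below the brightest one, and only the dim ATP5E probe has an interval that leaves out 0.

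Other genes of the pathway were counted from a list of 71, of which 58 were tested. Of these 58, 3 were called and all 3 were lower in the DFX tumors, which is 5.17% against 7.91% of all genes. ETFA, the alpha subunit of the flavoprotein that feeds electrons from fatty acid oxidation to ubiquinone, was 9.91, 10.01 and 10.15 with vehicle against 9.74, 9.74 and 9.38 with DFX. It fell by 0.40 on the log2 scale (SE 0.15, limma adjusted p = 0.570). LYRM7, a chaperone that hands the Rieske protein to complex III, was 6.52, 6.31 and 6.81 against 6.15, 6.26 and 5.99 and fell by 0.41 (SE 0.16, limma adjusted p = 0.582). ATPAF1, which helps to assemble the F1 head, was 4.99, 5.23 and 5.13 against 4.83, 4.45 and 4.34 and fell by 0.58 (SE 0.16, limma adjusted p = 0.514). ATPAF1 was well above background in 2 of the 3 DFX tumors. With 1 tumor left out, ATPAF1 stayed past the unadjusted level each time, with differences from -0.72 to -0.48. ETFA no longer passed without Control 2 (-0.41), Control 3 (-0.34) or DFX 3 (-0.28). LYRM7 passed only when Control 2 was the tumor left out, and its difference ranged from -0.53 to -0.28.

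Among the electron carriers, CYC1, the heme-bearing cytochrome of complex III, differed by -0.13 (SE 0.22) and CYCS, cytochrome c, by -0.079 (SE 0.16). None of 10 tested regulators was called. TFAM, the main packaging and transcription factor of mitochondrial DNA, differed by 0.17 (SE 0.12) and NRF1, a regulator of nuclear respiratory genes, by -0.21 (SE 0.13). Assembly factors of complexes I, II and IV gave 0 calls among 10, 2 and 12 tested genes.

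Markers of the cell types a tumor could hold were read on the same arrays. Of 6 epithelial markers, 3 were called, all higher in the DFX tumors: EPCAM by 0.43, KRT8 by 0.48 and KRT18 by 0.27 (3.63% of all genes were called higher and 4.28% lower). Of 5 fibroblast markers tested, DCN was called lower and LUM higher, and of 4 red blood cell markers HBA2 and HBD were called lower. None of 4 leukocyte markers was called. EPCAM, DCN, HBA2 and HBD stayed past the unadjusted level with any 1 tumor left out; KRT8 (0.37 to 0.62), KRT18 (0.24 to 0.31) and LUM (0.57 to 1.11) lost it in 4 of 6 cases each. The summed linear intensity of the epithelial list was 475000 to 529000 in the Control tumors and 527000 to 543000 in the DFX tumors, and that of the red blood cell list 5260 to 6820 against 1660 to 1810. The epithelial ranges overlapped between groups, and those of the red blood cell list did not. The fibroblast list (11700 to 19100 against 10500 to 13100) and the leukocyte list (1040 to 1150 against 1030 to 1200) overlapped too. So did the muscle list (1180 to 2860 against 1920 to 2790). The epithelial, fibroblast, leukocyte and red blood cell markers tested were each well above background on at least 1 array. Of the 6 muscle markers tested, 2 were well above background on none. The part of these markers in the subunit values was not tested.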

How the data were processed

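Total RNA from 6 tumors was labeled with Cy3 and hybridized to 60K Agilent arrays. The deposited scanner files give intensity per spot (gProcessedSignal, background-subtracted) and a detection p-value per spot; per the labels, Agilent Feature Extraction 9.5.1.1 was used, and per the file headers 10.7.1.1 (probe positions on hg19). The authors log2-transformed and quantile-normalized the signals, and their deposited table of processed values (linear intensity) served as an alternative.

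Here gProcessedSignal was log2-transformed, quantile-normalized and averaged over the spots of a probe, leaving out 1398 spot values with outlier flags (6 in the members). Of 50599 probes, 31807 had a detection p under 0.05 on all 6 arrays (the median over a probe's spots) and were fitted with limma 3.58.1 (R 4.3.3) by lmFit and eBayes, with Benjamini-Hochberg adjustment over them. The brightest tested probe stood for a gene. No spot was saturated, and the number of arrays limits the precision. The fit was tested on simulated data. The bound for a dim group used the lowest signal among probes well above background on each array, or the probe's own signal where higher.

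Named genes were those called, the 5 largest differences in each direction among well measured members, all iron-sulfur and heme subunits, paralog pairs, members without a tested probe, and called genes of the wider pathway (1 named gene and 1 probe sequence are not reported here); others (non-overlapping groups, F1 subunits, probes that disagreed, mitochondrial genes) were picked once values had been seen. The members and lists were chosen with earlier results of these data known. The NRF1 core was searched in place of a longer palindrome whose smaller counts had already been seen. Replicate numbers did not pair the tumors (correlations of deviations 0.027, 0.027 and 0.016). Alternatives covered scaling, background correction, dim-probe filters, flags, choice of probe, variance model, array weights, slide column, the Kruskal-Wallis test named in the methods, and leaving out each tumor.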

Additional observations from a re-analysis of the deposited data

How the results depend on the processing

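With 3 tumors in each group on 1 slide, only differences well above the spread between tumors could pass, and a p above the threshold does not show that levels were equal. The replicate block called 0 subunits and changed no call; numbers were not shown to pair tumors. The count of called subunits was 0 in the values reported and rose to 1 with normexp (1 lower), 4 with raw mean signal (2 higher, 2 lower), 4 without the dim-probe filter and 4 without moderation (all higher), 2 with array weights (both higher) and 7 with the Kruskal-Wallis test (5 higher, 2 lower), which calls exactly the non-overlapping groups. All genes were called at 8.60%, 9.01%, 7.46%, 8.12%, 12.6% and 15.4% under these settings, and the subunits at 1.28%, 5.13%, 5.13%, 5.13%, 2.56% and 8.97%, below that share each time. In the same order the calls were 1, 1, 2, 2, 1 and 4 in complex I; with raw signal, no filter, no moderation and Kruskal-Wallis 2, 1, 1 and 1 in complex II; with raw signal, no filter, no moderation, weights and Kruskal-Wallis 1, 1, 1, 1 and 2 in complex V; and 1 for the iron-sulfur subunits with raw signal.

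Median scaling moved the median of all genes to -0.095 (8040 above 0, 15770 below) and that of the subunits to -0.11 (12 above 0, 66 below). The median of complex III moved to -0.099 (-0.096 with slide column as a block). Median scaling also moved the lower share of all calls from 54.1% to 68.1%, and 75th percentile scaling to 38.6%.

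Signs turned for small differences. With array weights COX6B1 was 0.031, NDUFA4 0.085, NDUFS7 0.046, NDUFS8 0.046, SDHD 0.059 and SDHC 0.029. With median scaling NDUFS1 was -0.014, COX8A -0.096 and COX6A1 -0.044. With slide column NDUFV2 was 0.0026, COX4I2 -0.043 and COX8A -0.045. NDUFA4 was 0.0040 with 75th percentile scaling, 0.018 with normexp and 0.019 with raw signal, NDUFS7 0.0042 with normexp and 0.0042 with raw signal, and NDUFB5 -0.013 as the mean of its probes. The causes were not tested.

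Leaving out 1 tumor gave 0 to 2 called subunits (0 to 1 higher, 0 to 1 lower), and 0 to 1 in complexes II, III and IV and among the iron-sulfur subunits; the calls came without DFX 2 or DFX 3. The range crossed 0 for 41 of the 78 tested subunits; among the genes named by rule and NDUFA4 the ranges that did were -0.17 to 0.055 for COX4I1, -0.11 to 0.034 for COX6B1, -0.0035 to 0.25 for COX6B2, -0.048 to 0.064 for COX8A, -0.093 to 0.11 for NDUFA4, -0.12 to 0.083 for NDUFS7, -0.10 to 0.067 for NDUFS8, -0.13 to 0.026 for NDUFV2, -0.15 to 0.021 for SDHC and -0.16 to 0.035 for SDHD. That of ATP5D, also named, was -0.074 to 0.13.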
